A study of Bos taurus with 6 samples.

Results

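SFTPC, SFTPA1 and ABCA3 are genes of pulmonary surfactant, and their rows were read from a table of 14179 gene symbols because earlier results of these data had shown counts for them in fetal forebrain. All 3 were in the table, and all 3 passed the filter on low counts that 11478 genes passed. Poly(A) RNA had been sequenced from forebrain, rumen and liver of untreated wild-type male Holstein fetuses at 90 days of gestation, with 2 libraries per tissue (Forebrain 1 and 2, Rumen 1 and 2, Liver 1 and 2). The fetuses measured 13 to 16 cm from crown to rump and 2 of them were male per the labels, so the 6 libraries came from at most 2 animals, and the labels do not say which animal gave which library. Nothing states that the libraries of a tissue are separate animals, so the spread that a p-value is set against here may be technical, and a p speaks for these samples alone. The members were chosen by their counts in forebrain, set against those in rumen and liver, so those differences are given as a description with no test.

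Surfactant is the film of phospholipid and protein that lowers surface tension in the air spaces of the lung. SFTPC encodes surfactant protein C, a very hydrophobic peptide cut from a membrane proprotein that carries a BRICHOS domain. SFTPA1 encodes a collectin, a soluble lectin of innate defence, and ABCA3 a transporter that loads phospholipid into lamellar bodies, the storage organelles of alveolar type II cells. In the lung the homeobox factor NKX2-1 activates all 3, and it also patterns the ventral forebrain and hypothalamus.

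Total counts ran from 10271024 (Forebrain 1) to 18528958 (Liver 2). Levels are given as CPM, that is, counts scaled to a common library size with TMM factors. A gene with 3 reads in a tissue's libraries together would stand at 0.115 CPM in forebrain, 0.116 CPM in rumen and 0.103 CPM in liver. Intervals on counts are exact Poisson or exact binomial ones at 95% and cover counting error only. Libraries of 1 tissue were closer in forebrain and rumen than in liver: among genes averaging 1000 counts or more, the SD of log2 ratios within a pair was 0.249 for forebrain, 0.211 for rumen and 0.945 for liver. The tests estimated spread over all tissues together, so the liver pair also weighs on the errors and p-values of forebrain against rumen. The tissues carried their own markers. STMN2, MAP2 and TUBB3, genes of neurons, led the forebrain list, whose summed level was 11560 and 11570 CPM in the forebrain libraries and between 94.6 and 352 CPM in the other 4. Hepatocyte genes summed to between 71.1 and 136 CPM outside liver and to 222200 and 192000 CPM in liver, and rumen wall genes to 27010 and 25420 CPM in rumen and at most 812 CPM elsewhere. Transcript lengths were not used here, so levels are compared between libraries and never between genes.

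SFTPC was the member with the clearest forebrain pattern. It had 129 counts in Forebrain 1 and 187 in Forebrain 2, 4 in Rumen 1 and 0 in Rumen 2, and 4 in Liver 1 and 10 in Liver 2. On the CPM scale this was 10.5 (interval 8.76 to 12.5) and 13.5 (11.6 to 15.6) in the forebrain libraries, 0.306 and 0 in the rumen libraries, and 0.298 and 0.642 in the liver libraries. Both forebrain libraries lay above all 4 of the others, and their intervals did not touch those of rumen or liver. Pooled over libraries, the forebrain level was 78.2-fold that of rumen, with a counting interval of 30.2 to 289, and 25.03-fold that of liver, with an interval of 14.7 to 46.3. The rumen side of the first ratio rests on the 4 counts of Rumen 1.

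SFTPA1 was scarce everywhere and was not particular to forebrain. It had 10 and 25 counts in Forebrain 1 and 2, none in either rumen library, and 23 and 41 counts in Liver 1 and 2. In CPM the forebrain libraries stood at 0.813 (interval 0.390 to 1.495) and 1.80 (1.17 to 2.66), and the liver libraries at 1.71 (1.085 to 2.57) and 2.63 (1.89 to 3.57). The forebrain and liver libraries overlapped, since Forebrain 2 lay above Liver 1. The pooled forebrain level was 0.606-fold that of liver, with a counting interval of 0.390 to 0.930. It was 11.55-fold the level that 3 counts over both rumen libraries would give, and the counting interval against rumen began at 8.90-fold.

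ABCA3 had the most counts of the 3 genes and was high in forebrain and in 1 of the liver libraries. It had 1548 and 1430 counts in Forebrain 1 and 2, 172 and 109 in Rumen 1 and 2, and 445 and 2310 in Liver 1 and 2. The levels were 126 and 103 CPM in forebrain, against 13.2 and 8.51 CPM in rumen and 33.1 and 148 CPM in liver. Liver 2 lay above both forebrain libraries and Liver 1 below both, so forebrain and liver overlapped, while both rumen libraries lay below all 4 of the others. Pooled forebrain stood 10.5-fold above pooled rumen, with a counting interval of 9.28 to 11.9. Against liver the fitted log2 fold change was 0.33 ± 0.61 (SE), and it was 1.79 without Liver 2 and -0.37 without Liver 1, so its sign rests on single libraries. For each of these genes, fewer cells of a type and less RNA per cell cannot be told apart in whole tissue.

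**Figure D1:**
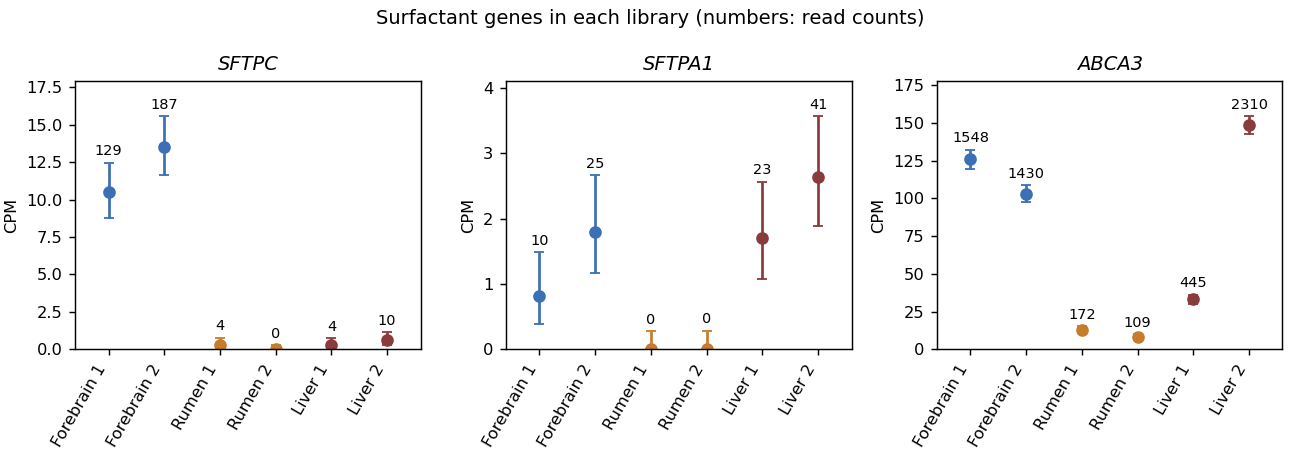
Each panel gives 1 gene, with CPM on the vertical axis (linear, from 0, scaled per gene) and the 6 libraries on the horizontal axis. Bars are exact Poisson intervals at 95% and the numbers are read counts, from 0 in rumen for SFTPA1 to 2310 in Liver 2 for ABCA3. SFTPC is high in both forebrain libraries, at 10.5 and 13.5 CPM, whereas SFTPA1 and ABCA3 reach their highest level in Liver 2.

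Ordered by mean level, the tissues ran forebrain, liver, rumen for SFTPC and ABCA3, and liver, forebrain, rumen for SFTPA1. Mean levels of SFTPC were 11.99 ± 2.13 CPM in forebrain, 0.153 ± 0.216 CPM in rumen and 0.470 ± 0.244 CPM in liver (SD, n = 2 each). Those of SFTPA1 were 1.31 ± 0.701 CPM in forebrain, 0 in rumen and 2.17 ± 0.651 CPM in liver, and those of ABCA3 were 115 ± 16.0, 10.8 ± 3.29 and 90.7 ± 81.5 CPM in the same order of tissues (SD, n = 2 each). Forebrain and liver as neighbours in that order did not differ beyond their spread for SFTPA1 or ABCA3. On the fitted log2 scale, forebrain exceeded rumen by 6.20 ± 0.84 for SFTPC and by 3.40 ± 0.70 for ABCA3 (SE). Forebrain minus liver was 4.62 ± 0.67 for SFTPC and -0.72 ± 0.67 for SFTPA1 (SE), and the value of SFTPA1 against the empty rumen libraries depends on the prior count.

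The members were not chosen on rumen against liver, but it shares the rumen and liver libraries that forebrain had been set against. A p-value there is thus not independent of the choice. In rumen against liver, 43% of the tested genes differed and 21.8% were lower in rumen at an adjusted p under 0.05. The test was the quasi-likelihood one of edgeR, with Benjamini-Hochberg adjustment across every tested gene. ABCA3 was lower in rumen, and SFTPA1 and SFTPC are described by their counts alone. SFTPA1 had none in rumen and passed the low-count filter only through forebrain and liver. SFTPC passed that filter only through forebrain, where its counts had led to its choice. ABCA3 was lower in rumen by a log2 fold change of -3.07 ± 0.69 (SE; edgeR adjusted p = 0.0122), at 10.8 ± 3.29 CPM in rumen and 90.7 ± 81.5 CPM in liver (SD, n = 2 each), and both rumen libraries lay below both liver libraries. That call was lost without Rumen 1 (edgeR adjusted p = 0.0705) and without Rumen 2 (edgeR adjusted p = 0.105), and the log2 fold change was -1.61 without Liver 2. SFTPA1, with 0 counts in rumen and 64 in liver, stood 19.0-fold lower in rumen if 3 counts over both rumen libraries are taken as its level. The counting interval of rumen over liver reached up to 0.0665-fold. SFTPC had 4 counts in rumen and 14 in liver, a pooled rumen level 0.320-fold that of liver, with a counting interval of 0.0767 to 1.02.

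**Figure D2:**
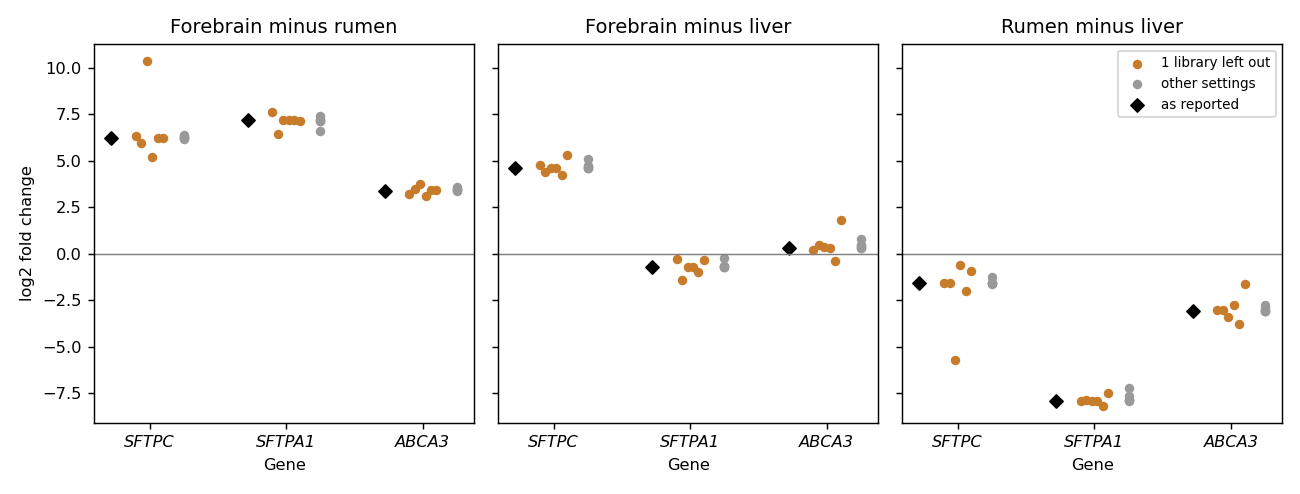
The log2 fold change of each gene is plotted in 3 panels, forebrain minus rumen, forebrain minus liver and rumen minus liver, with diamonds for the reported value, orange points for fits with 1 library left out and grey points for the other settings. ABCA3 in forebrain minus liver lies on both sides of 0, from -0.37 to 1.79. SFTPC in forebrain minus rumen reaches 10.35 without Rumen 1, where rumen has no counts left and the fitted value depends on the prior count.

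The libraries of each tissue were then compared for the same genes, using log2 CPM with a prior count of 2. In forebrain, SFTPC differed 1.28-fold between libraries, a ratio that 32.5% of the tested genes matched or passed, and ABCA3 differed 1.22-fold, matched or passed by 41.2%. SFTPA1 differed 2.03-fold between the forebrain libraries, which 6.31% of genes matched or passed, on 10 and 25 counts. In liver, ABCA3 differed 4.46-fold, matched or passed by 8.15% of genes. Some genes outside the members, picked after their values were seen, were also higher in Liver 2 than in Liver 1. HNF4A, a transcription factor of hepatocytes, had 329.5 CPM in Liver 2 and 107.5 CPM in Liver 1. The hepatocyte list as a whole did not share that direction, summing to 192000 CPM in Liver 2 and 222200 CPM in Liver 1. In that list ALB, AHSG and AFP were lower in Liver 2, and APOA1, SERPINA1, TTR and FGB were higher. The retinal lipid transporter ABCA4 had 12.9 CPM in Liver 2 and 2.98 CPM in Liver 1, and AGER, a receptor abundant in alveolar type I cells, had 29.7 CPM in Liver 2 and 1.56 CPM in Liver 1. Their part in the ABCA3 level was not tested.

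**Figure D3:**
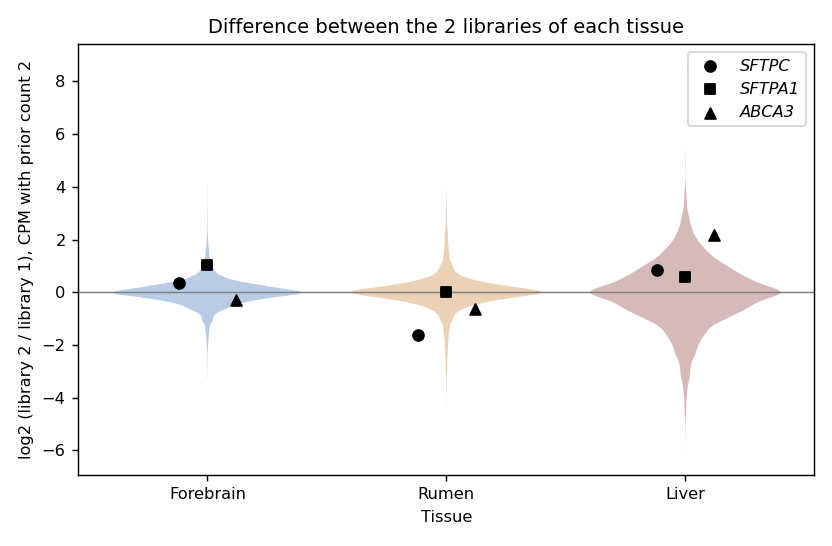
The vertical axis gives the log2 ratio of library 2 to library 1, and the horizontal axis the 3 tissues. Shaded shapes are the 11478 tested genes, and symbols the 3 surfactant genes. The liver shape is the widest, and ABCA3 stands 4.46-fold higher in Liver 2, while SFTPC in rumen rests on 4 counts in Rumen 1 and 0 in Rumen 2.

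The other surfactant proteins did not share the forebrain pattern of SFTPC. SFTPB, which makes the surfactant film spread and is needed for lamellar bodies, had no counts in either forebrain or rumen library, which allows up to 0.115 CPM over both forebrain libraries. It had 10 counts in Liver 1 and 105 in Liver 2, at 0.744 and 6.74 CPM. SFTPD, the collectin surfactant protein D, had no counts in any of the 6 libraries. SFTA2 had none in forebrain, 2 and 0 counts in rumen, and 3 and 0 in liver. None of these 3 passed the low-count filter, so they were not tested.

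Genes that process and store surfactant went in different directions. Of the 13 others on that list, 10 were in the table and 7 were tested. LPCAT1, an acyltransferase that remodels phosphatidylcholine into its saturated surfactant form, had 161 and 139 CPM in Forebrain 1 and 2, 78.2 and 86.7 CPM in Rumen 1 and 2, and 17.5 and 24.7 CPM in Liver 1 and 2. Both forebrain libraries lay above the other 4, with a log2 fold change of 0.86 ± 0.24 against rumen (SE; edgeR adjusted p = 0.0278) and 2.82 ± 0.26 against liver (SE; edgeR adjusted p = 0.000185). CTSH, a cathepsin that cleaves the proproteins of SFTPB and SFTPC in lung, was lower in forebrain at 3.01 and 4.91 CPM, against 18.9 and 15.7 CPM in rumen and 40.05 and 23.6 CPM in liver. HPS1 and AP3B1, which build lysosome-related organelles, were lower in forebrain than in both other tissues as well, AP3B1 at 17.9 ± 0.709 CPM in forebrain, 84.3 ± 4.404 CPM in rumen and 73.7 ± 3.05 CPM in liver (SD, n = 2 each). VPS33B, a trafficking protein, had 37.85 ± 1.67 CPM in forebrain, 47.05 ± 5.85 CPM in rumen and 55.8 ± 43.8 CPM in liver (SD, n = 2 each) and passed in neither comparison. LYST had 24.2 and 15.95 CPM in Forebrain 1 and 2, 2.14 and 7.10 CPM in Rumen 1 and 2, and 24.3 and 6.87 CPM in Liver 1 and 2. It passed in neither comparison either, but DESeq2 and library totals as scaling called it higher in forebrain than in rumen. ADGRF5, a receptor that restrains surfactant secretion in mice, was lower in forebrain than in liver, at 25.65 ± 3.84 against 47.8 ± 16.4 CPM (SD, n = 2 each; edgeR adjusted p = 0.0466), a call that was lost without any library other than Liver 1 and under each other scaling, filter, tool or model tried.

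Against rumen this made 1 higher (LPCAT1) and 3 lower (CTSH, HPS1 and AP3B1) of 7, where 41.8% of all tested genes were called, 21.5% higher and 20.3% lower. Their median log2 fold change was -0.32, against 0.01 over all tested genes. Without Forebrain 1 the counts were 0 higher and 1 lower, without Forebrain 2 and without Rumen 1 they were 0 and 2, without Rumen 2 they were 0 and 3, and without either liver library 2 and 3. Against liver it made 1 higher (LPCAT1) and 4 lower (CTSH, HPS1, AP3B1 and ADGRF5) of 7, where 57.8% of all tested genes were called, 27.3% higher and 30.5% lower. Here the median was -0.90, against -0.14 over all tested genes. Counts against liver were 2 higher and 6 lower without Liver 1, 2 and 3 without Liver 2, and 1 and 3 without any other single library. They were also 1 and 3, without ADGRF5, under each of the 6 other settings with all libraries. The other 3 genes of the list in the table had too few counts to be tested. LAMP3, a lysosomal membrane protein, had 3 and 0 counts in Forebrain 1 and 2, the phosphate transporter SLC34A2 had 0 and 1, and PGC, an aspartic protease made by type II cells, had none in any library.

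**Figure D4:**
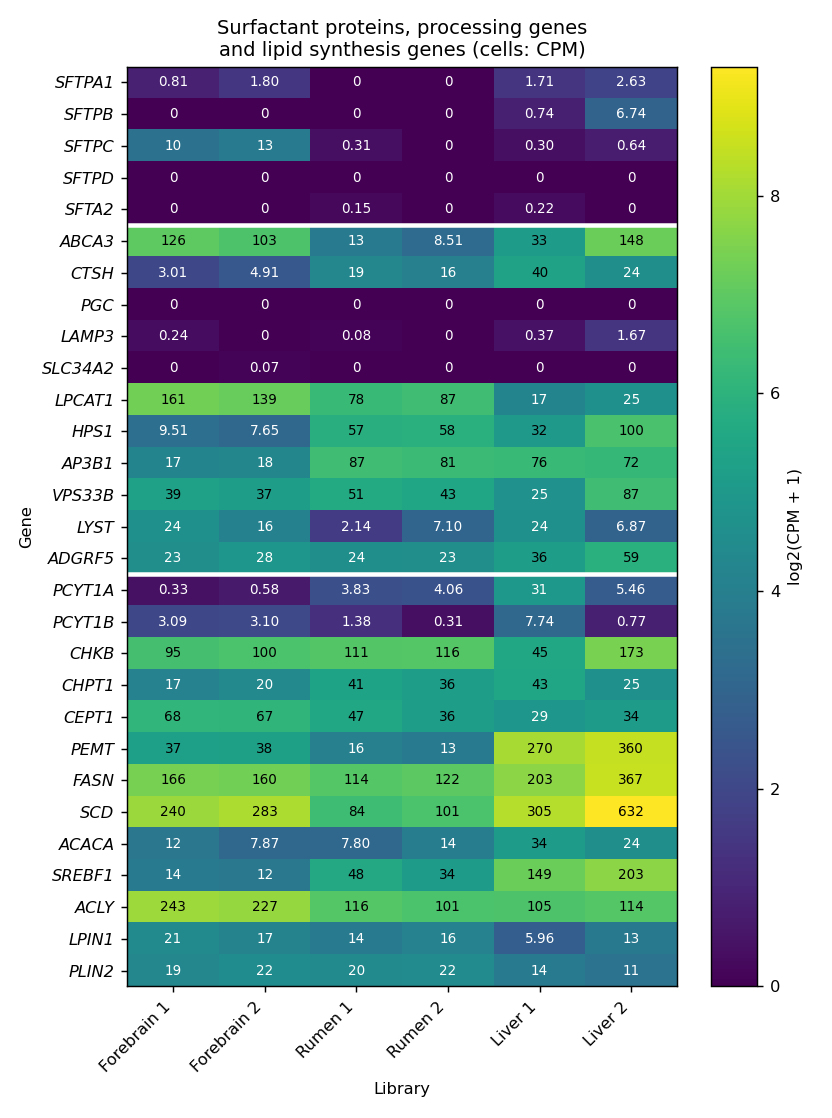
Rows are surfactant proteins (top), processing and lamellar body genes (middle) and lipid synthesis genes (bottom), columns are the 6 libraries, colour is log2(CPM + 1) and the printed values are CPM. SFTPB, SFTPD and PGC are at 0 in both forebrain libraries, while LPCAT1 stands at 161 and 139 CPM and ABCA3 at 126 and 103 CPM in Forebrain 1 and 2.

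Lipid synthesis genes, which serve every tissue, were counted as the other side of surfactant production. Of 14 listed, 13 were in the table and tested. Against rumen, 3 were higher in forebrain (PEMT, SCD and ACLY) and 2 lower (CHPT1 and SREBF1), where 41.8% of all tested genes were called. Against liver 2 were higher (CEPT1 and ACLY) and 4 lower (PCYT1A, PEMT, ACACA and SREBF1), where 57.8% of all tested genes were called. ACLY, which makes cytosolic acetyl-CoA, was the one higher in both comparisons, at 235 ± 10.8 CPM in forebrain, 108.5 ± 9.97 CPM in rumen and 109 ± 6.52 CPM in liver (SD, n = 2 each). The desaturase SCD had 261 ± 30.3 CPM in forebrain, 92.6 ± 11.5 CPM in rumen and 468.5 ± 232 CPM in liver, and the fatty acid synthase FASN 163 ± 4.26, 118 ± 6.12 and 285 ± 115 CPM in that order (SD, n = 2 each). PCYT1A, the rate-limiting enzyme of phosphatidylcholine synthesis, had 4 and 8 counts in forebrain, 50 and 52 in rumen, and 410 and 85 in liver. The numbers depended on single libraries. Against rumen they were 1 higher and 1 lower without Forebrain 1, 2 and 0 without Forebrain 2, 2 and 1 without Rumen 1, 0 and 1 without Rumen 2, and 6 and 3 without either liver library. Against liver they were 1 and 2 without either forebrain library, 4 and 7 without Liver 1, and 4 and 6 without Liver 2.

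Relatives of each member by protein family were read next. Of the ABCA transporters besides ABCA3, ABCA12, which carries lipid in skin, had 32 and 44 counts in Forebrain 1 and 2 and none in the other 4 libraries. ABCA7 had 8.27 ± 2.10 CPM in forebrain, 8.25 ± 3.01 CPM in rumen and 13.05 ± 3.61 CPM in liver, and ABCA9 2.92 ± 0.674, 4.76 ± 0.667 and 3.003 ± 0.0691 CPM in that order (SD, n = 2 each), and neither passed in any comparison. Among BRICHOS relatives of SFTPC, ITM2B was lower in forebrain than in rumen, at 308.5 ± 8.88 against 969.5 ± 15.6 CPM (SD, n = 2 each; edgeR adjusted p = 0.00117). ITM2C had 177 ± 9.34 CPM in forebrain, 161 ± 16.5 CPM in rumen and 131 ± 64.1 CPM in liver, and CNMD, a cartilage protein, 9.30 ± 1.65, 5.54 ± 1.66 and 3.16 ± 3.52 CPM in that order (SD, n = 2 each), with no call in any comparison. TNMD, a tendon protein, had 35 and 16 counts in forebrain, against 0 and 7 in rumen and none in liver, so that its forebrain libraries lay above the other 4, like those of SFTPC. It was the BRICHOS relative called higher in forebrain than in liver, a call that was lost without Forebrain 1 and without Forebrain 2. The collectins and their relatives, 10 tested besides SFTPA1, counted 1 higher in forebrain than in liver (COLEC12) and 9 lower. There 57.8% of all tested genes were called and 30.5% were lower. The count lower than in liver in this group, which includes relatives such as CD209 and the C1Q genes, varied when single libraries were left out. Against rumen 2 were higher (COLEC11 and C1QB) and 1 lower (COLEC12), where 41.8% of all tested genes were called. COLEC11, named after its values were seen, had 113 and 108 counts in forebrain, 0 and 1 in rumen, and 921 and 895 in liver. Its tissues ran in the order of SFTPA1. COLEC12, a scavenger receptor, had 5.61 and 16.7 CPM in forebrain, against 148 and 180 CPM in rumen and 0.223 and 0.257 CPM in liver. C1QB and C1QA, complement genes of macrophages, had 26.3 ± 8.22 and 11.6 ± 3.24 CPM in forebrain and 202 ± 105 and 149 ± 115 CPM in liver (SD, n = 2 each). CL43, a collectin of cattle named after its values were seen, had 0 and 2 counts in forebrain, none in rumen, and 688 and 729 in liver. Reads of collectins can be shared within the family, so the low counts of SFTPA1 are uncertain to that extent.

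NKX2-1 and SFTPC were set side by side in the forebrain libraries. NKX2-1 had 48 counts in Forebrain 1 and 951 in Forebrain 2, at 3.90 and 68.6 CPM, a 17.0-fold difference that 0.0261% of tested genes matched or passed. In the same libraries SFTPC stood at 10.5 and 13.5 CPM, SFTPA1 at 0.813 and 1.80 CPM, and ABCA3 at 126 and 103 CPM. SFTPC and SFTPA1 were thus higher in Forebrain 2, as NKX2-1 was, by 1.28-fold and 2.03-fold, and ABCA3 was lower there. The counting intervals of Forebrain 1 and Forebrain 2 overlapped for SFTPC and for SFTPA1, but not for ABCA3. In the other tissues NKX2-1 had 2 and 12 counts in rumen and none in liver. NKX2-1 was among 12 tested lung epithelium transcription factors. Against rumen 2 of these were higher in forebrain (NKX2-1 and HOPX) and 6 lower (FOXA1, FOXP1, FOXP4, KLF5, ELF3 and ELF5). Against liver 5 were higher (NKX2-1, FOXP2, ID2, KLF5 and HOPX) and 4 lower (FOXA1, FOXP1, CEBPA and ELF3). Of all tested genes, 41.8% were called against rumen (20.3% lower) and 57.8% against liver (30.5% lower). Other genes of the ventral forebrain and hypothalamus, named after their values were seen, differed between the forebrain libraries in the direction of NKX2-1. Of the 16 genes of that list in the table, 1 had no counts in Forebrain 1 and 0 in Forebrain 2, and their sum was 464.5 and 647 CPM in forebrain, against 54.6 and 55.25 CPM in rumen and 46.5 and 36.7 CPM in liver. HCRT, the precursor of the hypothalamic peptide orexin, had 1.545 CPM in Forebrain 1 and 49.9 CPM in Forebrain 2, DLX1 2.36 and 19.6 CPM, SIX3 6.42 and 29.2 CPM, FEZF1 2.36 and 15.95 CPM, and OTP 11.55 and 32.2 CPM. GAD1 and POMC, 2 of the 3 leading genes of that list beside NKX2-1, differed less: GAD1 had 383 and 351 CPM in Forebrain 1 and 2, the opposite direction, and POMC 44.5 and 51.8 CPM. Their part in the levels of the surfactant genes was not tested.

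Markers of cells that could bring surfactant transcripts into a dissected forebrain were read next. Of the 21 other lung epithelium markers in the table, 10 had no counts in Forebrain 1 and 10 none in Forebrain 2. SCGB1A1 and SCGB3A2 of club cells, BPIFA1 and BPIFB1 of airway secretions, CLDN18, CLDN4, SFTPB and SFTPD were at 0 in both. KRT8, a keratin of simple epithelia, had 0 and 4 counts, and the epithelial cadherin CDH1 had 1 and 0. Other markers of the list were present in forebrain, with 7 above 3 counts in Forebrain 1 and 9 in Forebrain 2. Among them, named after their values were seen, EPCAM had 134 and 104 counts, CLDN3 130 and 139, and AGER 43 and 44. The summed level of these markers was 170.5 and 160 CPM in forebrain, against 1121 and 926 CPM in rumen and 383 and 563 CPM in liver. Of the 11 tested, 1 was higher in forebrain than in rumen (HOPX) and 7 were lower, among them CLDN4, KRT8 and CDH1, where 41.8% of all tested genes were called and 20.3% were lower. Against liver 3 were higher (HOPX, CLDN3 and KRT19) and 6 lower, where 57.8% were called, and these became 1 and 4 without Forebrain 1, 2 and 3 without Forebrain 2, and 3 and 9 without Liver 1. RTKN2, a gene of alveolar type I cells named after its values were seen, had 7 and 5 counts in forebrain and none elsewhere. HOPX, also a gene of neural stem cells, led it in forebrain at 86.3 ± 17.5 CPM, followed by KRT19 and KRT18. Thyroglobulin (TG), the marker of the thyroid, another organ that uses NKX2-1, had 8 and 4 counts in forebrain, 20 and 0 in rumen, and 15 and 19 in liver. Of the other thyroid genes, HHEX had 18 and 46 counts in forebrain, 17 and 43 in rumen, and 503 and 1330 in liver, and the receptor TSHR had 1 and 1, 6 and 0, and none in that order. The choroid plexus and ependyma list, 19 genes in the table, had 1 and 4 at 0 in Forebrain 1 and 2, and summed to 417 and 323 CPM in forebrain, against 125 and 144 CPM in rumen and 2314 and 3021 CPM in liver. In liver TTR, also a hepatocyte gene, made up 2180 and 2691 CPM of that sum. OTX2, SLC4A10 and ENPP2 led it in forebrain, at 182 and 101.5 CPM, 122 and 92.6 CPM, and 63.3 and 60.7 CPM. Defining genes of choroid plexus were near 0 in forebrain: TTR, its most abundant secreted protein, had 7 and 39 counts, FOLR1 1 and 6, KCNJ13 1 and 0, and KL none. Of the genes of motile cilia, which line the ventricles, RSPH1 had 93 and 184 counts in forebrain, FOXJ1 37 and 55, and TEKT1 28 and 38 (named after their values were seen). In rumen these 3 had no counts, and in liver RSPH1 had 4 and 0, FOXJ1 12 and 0, and TEKT1 none. Other cilium genes of the list were found in rumen as well. CFAP126 had 17.3 ± 0.752 CPM in forebrain and 21.5 ± 6.42 CPM in rumen, RFX2 4.71 ± 0.793 and 8.02 ± 3.88 CPM, and CCDC153 12.6 ± 4.29 and 5.64 ± 0.515 CPM (SD, n = 2 each), none of them called. DNAI1 had 15 and 28 counts in forebrain and 3 and 10 in rumen, and DNAH9 34 and 56 in forebrain and 14 and 0 in rumen. The oligodendrocyte lineage list, with none of its 11 genes at 0 in forebrain, summed to 483 and 635 CPM in forebrain, against 295 and 303 CPM in rumen and 208 and 137.5 CPM in liver. OLIG1, its leading gene, was at 156 and 203 CPM in forebrain without counts elsewhere. PDGFRA had 91.7 ± 0.656 CPM in forebrain, 141 ± 19.4 CPM in rumen and 5.25 ± 1.52 CPM in liver, and MBP 78.85 ± 26.2, 1.43 ± 0.144 and 21.5 ± 24.3 CPM in that order (SD, n = 2 each). SOX10 and CNP had 15.4 ± 0.163 and 67.7 ± 6.62 CPM in forebrain, against 21.2 ± 2.00 and 89.7 ± 8.59 CPM in rumen (SD, n = 2 each). The part of ciliated or glial cells in the SFTPC and ABCA3 levels was not tested.

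**Figure D5:**
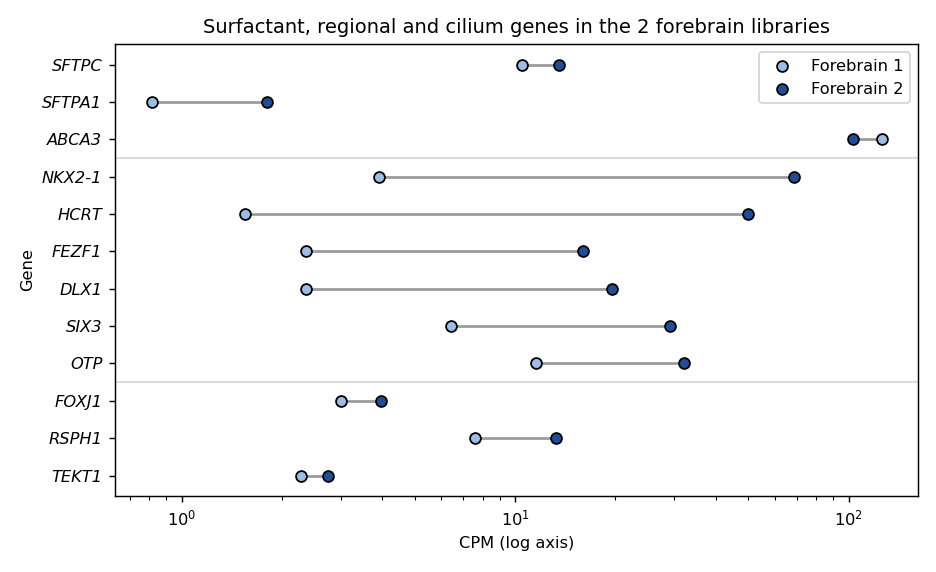
Each row is a gene, with its CPM in Forebrain 1 (light) and Forebrain 2 (dark) on a log axis, in blocks of surfactant, ventral forebrain and hypothalamus, and cilium genes. NKX2-1 spans 3.90 to 68.6 CPM and HCRT 1.545 to 49.9 CPM, whereas SFTPC spans 10.5 to 13.5 CPM.

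Neighbouring genes were looked up because the sources used here do not give the strand setting of the counting, and without it reads of overlapping genes cannot be told apart. Beside SFTPC, the RefSeq gene order places LGI3 and REEP4 on one side and BMP1 and PHYHIP on the other. The nearest ones, LGI3 and BMP1, were not analysed here. REEP4 was lower in forebrain, at 4.96 and 5.05 CPM against 31.8 and 26.9 CPM in rumen and 27.3 and 56.9 CPM in liver, the opposite of SFTPC. PHYHIP had 20.2 and 28.6 CPM in forebrain, against 3.37 and 3.82 CPM in rumen and 0.149 and 0 CPM in liver, and so was high in the same tissue as SFTPC. SFTPA1 lies between the mannan-binding lectin MBL1 and MAT1A, the methionine adenosyltransferase of liver. MBL1 had 0 and 1 counts in forebrain, none in rumen, and 298 and 499 in liver, and MAT1A had 9.76 and 6.57 CPM in forebrain, against 0.842 and 2.575 CPM in rumen and 498 and 699 CPM in liver. By mean level, liver led for SFTPA1 and for both of these neighbours, and rumen was the lowest or empty. For SFTPA1, forebrain and liver overlapped, at 1.31 ± 0.701 and 2.17 ± 0.651 CPM (SD, n = 2 each). The part of these neighbours in the SFTPA1 counts was not tested. The next genes outward were LOC101904235, not analysed here, and DYDC1, with 7 and 6 counts in forebrain, 0 and 15 in rumen, and 10 and 19 in liver. Beside ABCA3, MIR940 and LOC777692 had at most 4 counts in any library. RNPS1, a splicing factor, had 202 ± 9.04 CPM in forebrain, 127 ± 18.6 CPM in rumen and 232 ± 60.2 CPM in liver, and the cyclin CCNF 2.02 ± 0.100, 16.45 ± 4.33 and 193 ± 2.49 CPM in that order (SD, n = 2 each). Neither of the 2 had the ABCA3 profile across libraries.

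Genes with the most similar profiles were taken as the 5 tested genes at the smallest Euclidean distance over the 6 libraries. Distances were between centred log2 CPM values with a prior count of 2. For SFTPC these were AFF2, RND1, CACNA2D3, PDYN and PTPN5, at distances of 0.912 to 1.27 log2 units. PDYN, the precursor of dynorphin peptides, had 17.8 and 19.1 CPM in forebrain, against 0.230 and 0 CPM in rumen and 0.223 and 0.385 CPM in liver. For SFTPA1 they were SHISA9, LDHD, PEG10, IL1B and PAG8, at 0.68 to 1 log2 units. The closest, SHISA9, had 0.894 and 1.08 CPM in forebrain, none in rumen, and 1.94 and 2.31 CPM in liver. Distances from SFTPA1 depend on the prior count, since SFTPA1 had no counts in rumen, where PEG10 had 589 and 640 CPM. For ABCA3 the nearest genes were KIAA2012, OPLAH, STOX1, GDF15 and TPD52L1, at 0.772 to 0.931 log2 units. OPLAH, the enzyme 5-oxoprolinase, had 48.7 and 58.6 CPM in forebrain, against 8.72 and 4.76 CPM in rumen and 13.4 and 50.0 CPM in liver. It was higher in Liver 2 than in Liver 1, like ABCA3, but the same libraries had been used to choose it. No gene appeared among the nearest of more than 1 member.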

How the data were processed

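The authors deposited unnormalized read counts by gene symbol, and the name of each of the 6 columns matched 1 sample's label. HISAT2 2.0.5, featureCounts 1.5.0-p3 and edgeR 3.18.1 are named in the submitters' processing notes. Build and annotation, like the strandedness of the counting, were not given in the sources used here. RefSeq (ARS-UCD2.0) was used only for gene names and order, and listed 13929 of 14179 symbols.

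Counts were tested with edgeR 4.0.16 (R 4.3.3) after filterByExpr with a minimum count of 10 and TMM scaling. The quasi-likelihood model, unblocked and with 3 residual degrees of freedom, held a mean for each tissue and was tested on simulated data. Its spread was estimated over all tissues together. Calls used a Benjamini-Hochberg adjusted p under 0.05 over all tested genes. Alternatives were other scalings, no filter, DESeq2 1.42.0, a replicate block, older edgeR dispersions and leaving out each library. Library totals and older dispersions were chosen after seeing the data. Named genes were the 3 leading forebrain genes of each list described (tissue identity lists by their sums), genes behind counts of 5 or fewer, 2 neighbours on each side and the 5 nearest profiles. Members and lists were chosen with earlier results of these data known.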

Additional observations from a re-analysis of the deposited data

How the results depend on the processing

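Leaving out single libraries moved the number of called genes from 4802 to between 2224 and 7463 for forebrain against rumen, from 6632 to between 3990 and 8255 for forebrain against liver, and from 4941 to between 2476 and 7273 for rumen against liver. The lowest numbers came without Forebrain 1, Forebrain 2 and Rumen 1 in that order of comparisons, and the highest without Liver 2 in all 3. Over the same fits, the log2 fold change of SFTPC lay between 5.23 and 10.35 against rumen and between 4.21 and 5.30 against liver. That of SFTPA1 lay between 6.45 and 7.63 against rumen and between -1.42 and -0.28 against liver, and that of ABCA3 between 3.09 and 3.75 against rumen and between -0.37 and 1.79 against liver. In rumen against liver, SFTPA1 lay between -8.16 and -7.49, values set by its empty rumen libraries, and ABCA3 between -3.77 and -1.61 (edgeR adjusted p 1.47e-08 to 0.105). SFTPC there lay between -5.73 and -0.61, on 4 counts in Rumen 1 and 0 in Rumen 2. DESeq2 gave SFTPA1 a log2 fold change of 6.59 against rumen, where a fitted value depends on the prior count. Library totals as scaling gave SFTPC 5.10 against liver. That scaling moved the median of all genes by 0.154 for forebrain against rumen, 0.475 for forebrain against liver and 0.293 for rumen against liver (log2). It gave 4149 higher and 2671 lower calls for forebrain against liver, in place of 3133 and 3499, and 3147 and 1913 for rumen against liver, in place of 2434 and 2507. Same-numbered libraries did not deviate together, with correlations of -0.0585 between forebrain and rumen, 0.0754 between forebrain and liver and -0.00177 between rumen and liver. Whether the numbers pair the samples by animal cannot be read from this, since variation within a tissue could hide a shared animal. With the replicate number as a block, 4563, 6415 and 4617 genes were called in the same order of comparisons, and in rumen against liver ABCA3 had -2.90 (edgeR adjusted p = 0.0196) and SFTPA1 -7.88. All 6 settings other than leaving out a library dropped ADGRF5 from the processing genes lower in forebrain than in liver, which left 3 in place of 4. Library totals and DESeq2 each called 2 processing genes higher in forebrain than in rumen in place of 1, and against liver library totals called 4 lipid synthesis genes higher and 3 lower in place of 2 and 4. SFTPA1 and the rumen counts of SFTPC are limited by depth, since differences of a few reads decide their values.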
